A study of Homo sapiens with 6 samples.

Results

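The chaperone and protein folding genes of HMC3 cells, an established human microglial cell line, were taken from the deposited count table by gene symbol. They comprised the HSP70, HSP90 and small heat shock protein genes, the J proteins (DNAJ genes), the subunits of the CCT chaperonin, the BAG, FKBP and protein disulfide isomerase A genes, and CANX, CALR and SEL1L. The symbols of 44 of 5117 genes matched, and all 44 passed the filter on low counts. Of these, 25 encode mainly cytosolic proteins, 14 proteins of the endoplasmic reticulum (ER) and 2 mitochondrial proteins, HSPD1 and DNAJC30. Another 3 were kept apart, namely FKBP8 of the outer mitochondrial membrane, DNAJC13 of endosomes, and DNAJC4, whose location was not assigned. No prefoldin gene (PFDN) and no TCP1 was among them.

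HMC3 cells were treated with C1s-CM, labelled as CM with C1s (3 libraries), or with control CM, labelled as CM without C1s and titled FLAG (3 libraries). All 6 libraries carry the genotype label WT and the tissue label brain. C1s cleaves C4 and C2 at the start of the classical pathway of complement, and the title of the series names glioblastoma. The labels used here give neither the duration nor the concentration of the treatment, do not spell out CM, and do not say whether libraries of a group came from separate cultures, so a p-value reflects library-to-library spread alone, and that spread may be technical.

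Chaperones bind unfolded stretches of other proteins and release them in cycles driven mostly by ATP. In the cytosol, J proteins hand clients to HSP70, nucleotide exchange factors such as the BAG proteins and the HSP110 proteins release them, and HSP90 or the ring-shaped CCT completes the folding of particular clients such as kinases, receptors, actin and tubulin. In the ER, the HSP70 protein BiP (HSPA5) and the HSP90 protein GRP94 (HSP90B1) work with disulfide isomerases and with the sugar-binding chaperones calnexin and calreticulin on secreted and membrane proteins. Microglia secrete cytokines and complement proteins that pass through this ER system. Heat shock factor HSF1 controls many of the cytosolic genes, and the unfolded protein response many of the ER genes.

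The table lists only genes that had passed an adjusted p threshold in the authors' own comparison of the same libraries, and any gene with no row was not analysed here. Per library, the rows held 14195082 to 14961744 counts under C1s-CM and 12730766 to 13863120 under control CM, only part of what was sequenced. The defining microglia markers AIF1, CX3CR1, P2RY12, TMEM119 and ITGAM had no row, so the label could not be checked on them. Of 7 fibroblast and pericyte markers COL1A1 and PDGFRB had rows, with 53339 to 56459 summed counts in C1s-CM and 51865 to 56919 in control CM. Of 6 astrocyte markers GJA1 had a row (1199 to 1414 counts in C1s-CM, 1519 to 1685 in control CM), and no neuron, oligodendrocyte or endothelial marker did. The part of these cell types in the results was not tested, and in bulk RNA fewer cells of a type and less RNA per cell cannot be told apart.

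Among the 44 chaperone genes 28 fell and 14 rose in C1s-CM. Their median log2 fold change was -0.21, against 0.08 over all genes tested. The calls come from edgeR's quasi-likelihood test with TMM scaling and Benjamini-Hochberg adjustment over 5116 genes at a threshold of 0.05. By the construction of the table nearly every gene passes. The share called was 99.4% of all genes tested, 50.9% higher and 48.5% lower, so a call by itself says little about a chaperone gene. Its direction and size are what is described here. All 44 had the same sign as in the authors' deposited table.

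Of 14 ER genes 10 fell and 2 rose (DNAJB12 and FKBP10, both negative and not called with total counts alone), with a median of -0.43. Of 25 cytosolic genes 16 fell and 9 rose, with a median of -0.21. Of the mitochondrial pair HSPD1 fell and DNAJC30 rose. The difference between compartments was not tested. CALR and HSPA5, both of the ER, did not pass the threshold. With scaling by total counts alone, which moves the median over all genes by -0.13, all 14 ER genes had a negative log2 fold change, 12 of them called. In the same setting 6 of the 44 genes were called higher and 30 lower, of them 3 cytosolic genes higher and 16 lower, and 75.3% of all genes were called (26.1% higher, 49.2% lower). DESeq2 called 96.4% of all genes, 47.9% higher in C1s-CM and 48.5% lower, and of the chaperone genes 12 higher and 28 lower. Relative to the median over all genes, the ER median was -0.51 and the cytosolic median -0.30 (log2) under either scaling. A change of scaling shifts all genes about alike, so this sameness was fixed in advance. With the offsets for GC content and length described further on, these values were -0.004 for the ER and 0.02 for the cytosol.

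As a share of the table's counts, the 44 genes together took 1.51%, 1.5% and 1.51% in the C1s-CM libraries, against 1.63%, 1.66% and 1.64% in the control libraries. The ER genes took 0.497%, 0.489% and 0.493% in C1s-CM, against 0.558%, 0.569% and 0.564% in control CM. The cytosolic genes took 0.874%, 0.866% and 0.871% in C1s-CM, against 0.941%, 0.953% and 0.944% in control CM. All 3 shares were lower in every C1s-CM library than in any control library.

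**Figure D1:**
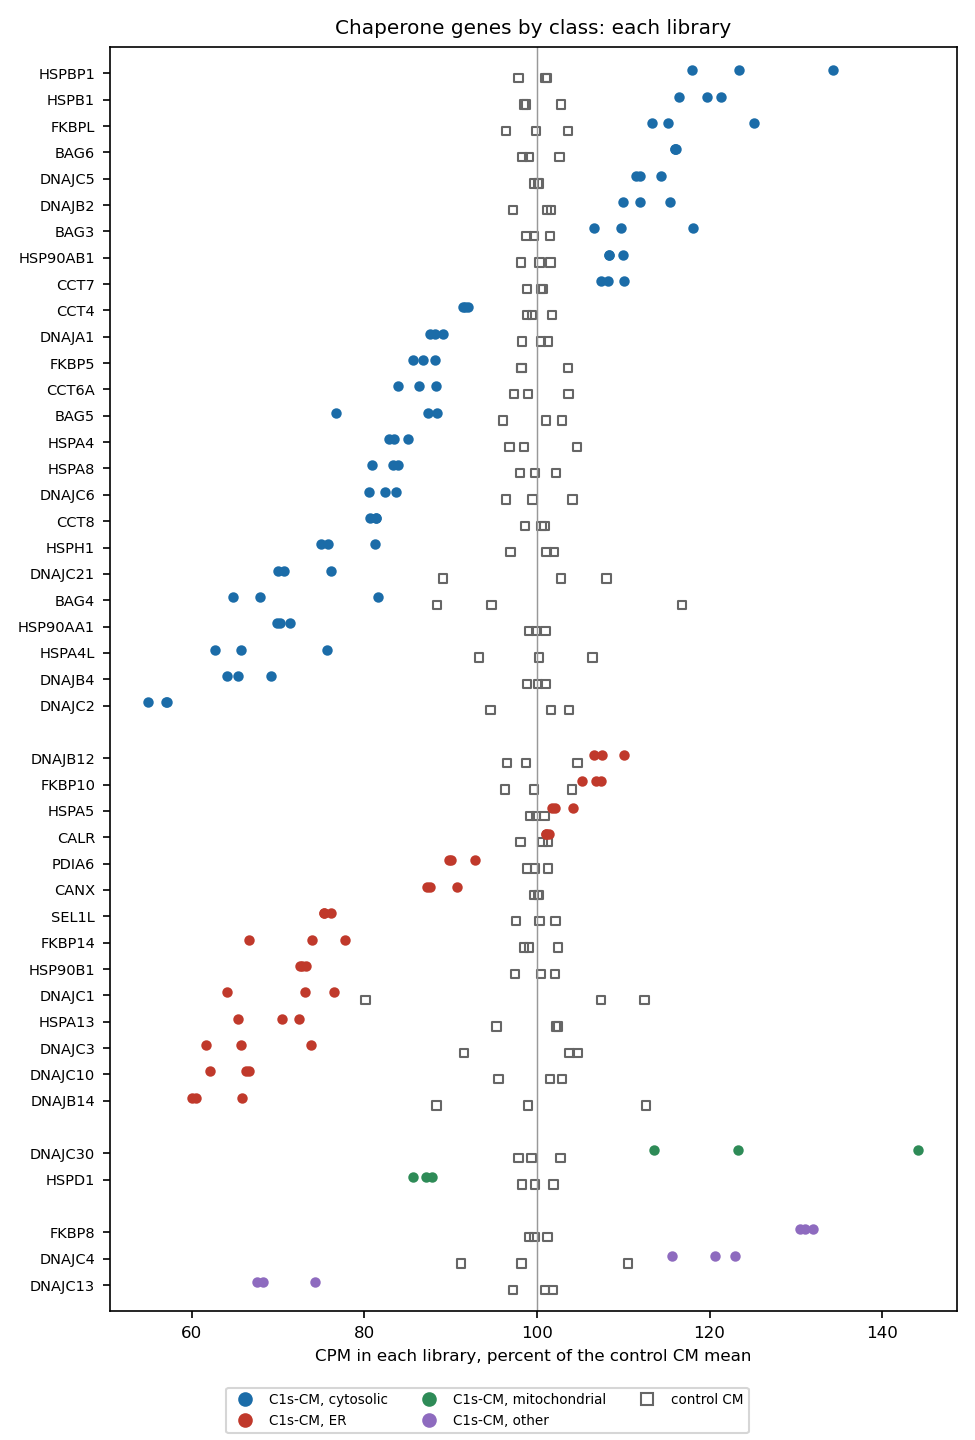
CPM of each chaperone gene in each library (horizontal axis, percent of that gene's mean in control CM), by class, with filled circles for C1s-CM libraries and open squares for control CM libraries. The groups do not overlap for 43 of the 44 genes; CALR is the exception, and the ER genes lie mostly to the left of the control mean.

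For 43 of the 44 genes every C1s-CM library lay on one side of every control library in CPM, which also held for 97.2% of all genes tested. CPM here are relative to the table's own counts after TMM scaling, and each value below in CPM refers to 1 library unless a mean is named. The lowest log2 fold change was -0.83 (DNAJC2) and the highest 0.39 (FKBP8).

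The 3 HSP90 genes split. HSP90AA1, the stress-inducible cytosolic HSP90, had 530.2, 519 and 522 CPM in C1s-CM, against 736, 750.1 and 742 CPM in control CM. All 3 C1s-CM libraries were low, with no overlap. Its log2 fold change was -0.50 ± 0.03 (SE, n = 3 each, edgeR adjusted p = 1.07e-13), the smallest p of the 44. HSP90AB1, the constitutive cytosolic HSP90, chosen for its pair after the values were seen, had 2098, 2130.2 and 2099 CPM in C1s-CM, against 1942, 1967 and 1900 CPM in control CM. Here the C1s-CM libraries were the high ones, and the log2 fold change was 0.12 ± 0.03 (edgeR adjusted p = 0.000128). With total counts as the only scaling it was -0.0022 and no longer called. HSP90B1, the ER paralog GRP94, had 314, 317 and 315 CPM in C1s-CM, against 422, 435 and 442 CPM in control CM. It fell by 27.2%, a log2 fold change of -0.46 ± 0.03 (edgeR adjusted p = 1.69e-12).

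The ratio of HSP90AA1 to HSP90AB1 counts within a library does not depend on library scaling. It was 0.253, 0.244 and 0.249 in C1s-CM, against 0.379, 0.381 and 0.390 in control CM. The balance between the inducible and the constitutive form was thus lower in every C1s-CM library. The pairs were picked with the values known, so no test is given.

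**Figure D2:**
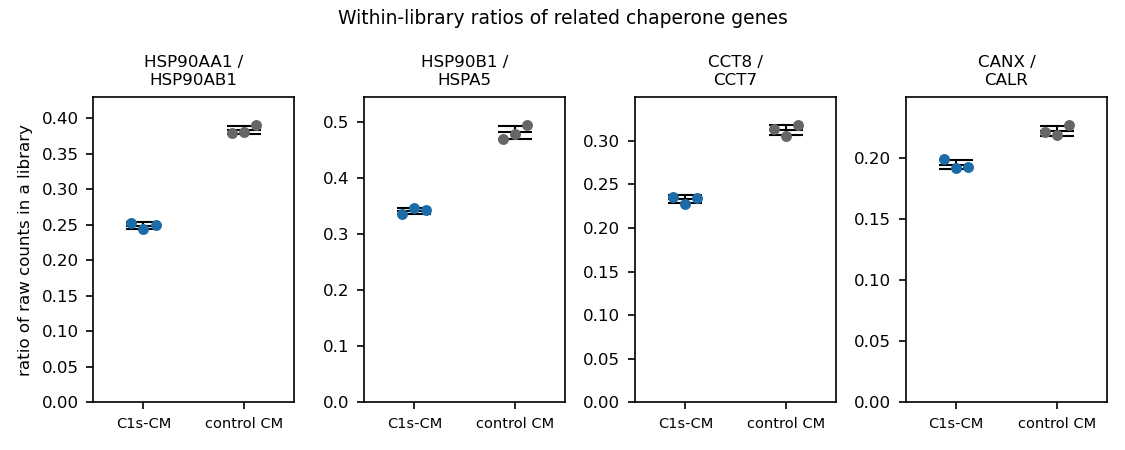
Ratio of raw counts of 2 related chaperone genes within each library (vertical axis, no unit, from 0), for C1s-CM and control CM; points are libraries, and bars the mean ± SD of 3. All 4 ratios are lower in every C1s-CM library than in any control library, HSP90AA1 over HSP90AB1 at 0.249 ± 0.00451 in C1s-CM against 0.383 ± 0.00586 in control CM.

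Of the 6 HSP70 and HSP110 genes 5 fell and none rose, HSPA5 being the one not called. The share called lower over all genes was 48.5%. HSPA8, the constitutive cytosolic HSP70, had 1065, 1097 and 1104 CPM in C1s-CM, against 1345, 1313 and 1289.6 CPM in control CM. It was lower in all C1s-CM libraries, with a log2 fold change of -0.27 ± 0.03 (edgeR adjusted p = 3.49e-09). The HSP110 genes, whose proteins act as exchange factors for HSP70, fell as well, with log2 fold changes of -0.26 ± 0.04 for HSPA4, -0.37 ± 0.06 for HSPH1 and -0.56 ± 0.11 for HSPA4L. Of the 6 genes, HSPA5 (0.24) and HSPA4 (0.12) were called higher with the offsets for GC content and length described further on. HSPA8 was called lower (-0.14), and HSPH1 (0.12), HSPA4L (0.02) and HSPA13 (0.08) were not called. The inducible HSPA1A and HSPA1B had no row.

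The HSP70 cofactors, HSPBP1 and the BAG genes, were divided, with 3 of 5 higher and 2 lower. HSPBP1 had 111, 97.5 and 102 CPM in C1s-CM, against 80.9, 83.5 and 83.6 CPM in control CM, a log2 fold change of 0.32 ± 0.05 (edgeR adjusted p = 1.34e-06). BAG6, which shields membrane proteins before their insertion, had 943, 944 and 943 CPM in C1s-CM, against 834, 799 and 805 CPM in control CM. Both were higher in every C1s-CM library. BAG6 changed by 0.21 ± 0.03 (log2, edgeR adjusted p = 1.06e-07). BAG3, the stress-inducible member linked to selective autophagy, had a log2 fold change of 0.16 ± 0.05, but without C1s-CM replicate 2 it was 0.11 with an edgeR adjusted p of 0.065, and with total counts alone 0.03 with one of 0.596. BAG4 (-0.50 ± 0.11) and BAG5 (-0.25 ± 0.06) fell. None of the 5 was called with the offsets for GC content and length described further on, HSPBP1 being at 0.02 and BAG6 at -0.0011.

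HSPB1, a small heat shock protein that holds unfolded clients without ATP, had 1306, 1253 and 1288 CPM in C1s-CM, against 1063, 1106 and 1060 CPM in control CM. Its log2 fold change was 0.25 ± 0.03 (edgeR adjusted p = 1.55e-08), and its groups did not overlap. With the offsets for GC content and length described further on, HSPB1 was called lower, at -0.09 (edgeR adjusted p = 0.00588). Per kilobase of its representative transcript it had a mean of 1411 CPM per kb in C1s-CM and 1184 in control CM. CALR had 1337 CPM per kb in C1s-CM and 1321 in control CM. By representative transcripts HSPB1 was thus the highest of the 44 in C1s-CM and CALR in control CM. This order depends on the transcript chosen. The representative transcript of HSPB1 has 909 bases and its longest 1455, while CALR has 1903 for either. HSP90AB1 was next in both groups, with 817 in C1s-CM and 750.0 in control CM. The lowest level was that of HSPA4L, 0.818 CPM per kb in C1s-CM and 1.2 in control CM.

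Of the 15 J proteins, which select HSP70 clients, 10 fell and 5 rose (median -0.47 on the log2 scale). In the cytosol DNAJC2, a J protein bound to ribosomes, fell furthest of all 44. It had 7.84, 8.13 and 8.15 CPM in C1s-CM (107 to 116 counts), against 13.5, 14.8 and 14.5 CPM in control CM (178 to 212 counts). The log2 fold change was -0.83 ± 0.11 (edgeR adjusted p = 2.82e-07). DNAJB4 fell as well (log2 -0.60 ± 0.08), as did DNAJC21, which acts in the maturation of the large ribosomal subunit (-0.47 ± 0.07), DNAJC6, the auxilin that uncoats clathrin vesicles (-0.28 ± 0.05), and DNAJA1, a general partner of HSP70 (-0.18 ± 0.03). DNAJC5, the cysteine string protein of vesicles, had 549, 535 and 537 CPM in C1s-CM, against 481, 480.3 and 478 CPM in control CM, and so was higher in every C1s-CM library (log2 0.17 ± 0.03, edgeR adjusted p = 2.66e-06). DNAJB2, which binds ubiquitylated clients, had a log2 fold change of 0.17 ± 0.03. With total counts alone neither was called, DNAJC5 at 0.05 (edgeR adjusted p = 0.102) and DNAJB2 at 0.04 (edgeR adjusted p = 0.232).

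Of the CCT subunits 4 had rows, and 3 of them fell. CCT8 had 213, 211 and 213 CPM in C1s-CM, against 263, 258 and 264 CPM in control CM, a log2 fold change of -0.30 ± 0.03 (edgeR adjusted p = 3.29e-09). CCT6A (-0.21 ± 0.04) and CCT4 (-0.13 ± 0.03) fell less far. CCT7 was higher in C1s-CM by 0.12 ± 0.03 (log2) under TMM scaling and at -0.01, not called, with total counts alone. The ratio of CCT8 to CCT7 counts, both subunits of the same ring, was 0.233 ± 0.00436 in C1s-CM and 0.312 ± 0.00603 in control CM (SD, n = 3 each). With the offsets for GC content and length described further on, neither gene was called, CCT8 at -0.05 (edgeR adjusted p = 0.181) and CCT7 at 0.05 (edgeR adjusted p = 0.107). Of the cytosolic FKBP prolyl isomerases, FKBP5, a partner of HSP90 in glucocorticoid receptor complexes, fell by 13.3%, and FKBPL had a log2 fold change of 0.24 ± 0.06, which was 0.11 and not called with total counts alone (edgeR adjusted p = 0.0865).

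In the ER, the J proteins that serve BiP and the membrane gave the 3 lowest log2 fold changes, those of DNAJB14, DNAJC10 and DNAJC3. DNAJC10, a J protein that reduces disulfide bonds, had 58.2, 62.5 and 62.2 CPM in C1s-CM, against 89.6, 96.5 and 95.2 CPM in control CM (log2 -0.62 ± 0.05, edgeR adjusted p = 9.12e-11). DNAJB14 (-0.69 ± 0.10), DNAJC3 (-0.58 ± 0.09) and DNAJC1 (-0.49 ± 0.13) fell too. DNAJB12, a membrane J protein like DNAJB14, went the other way, with 122, 123 and 126 CPM in C1s-CM, against 119.8, 110.5 and 113 CPM in control CM. Its log2 fold change was 0.11 ± 0.04 (edgeR adjusted p = 0.00958), and it missed the threshold without C1s-CM replicate 3 (0.10, edgeR adjusted p = 0.0503). DNAJB14 (-0.0075), DNAJC10 (-0.0059), DNAJC3 (-0.08) and DNAJB12 (-0.0048) were not called with the offsets for GC content and length described further on. DNAJC1 was still called lower, at -0.54.

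HSPA13, an HSP70 of the microsomes, had 65.2, 67 and 60.5 CPM in C1s-CM, against 88.2, 94.6 and 94.8 CPM in control CM (log2 -0.53 ± 0.05, edgeR adjusted p = 1.79e-09). SEL1L, the adaptor of the HRD1 ligase that removes misfolded ER proteins, had 81.9, 82.7 and 81.8 CPM in C1s-CM, against 106, 111 and 109 CPM in control CM (log2 -0.41 ± 0.04, edgeR adjusted p = 5.54e-09). Neither gene's groups overlapped. PDIA6, the one PDIA gene with a row, fell by 9.05%. Of the ER prolyl isomerases for procollagen, FKBP14 fell by 27.1%, while FKBP10 had 189, 193 and 192 CPM in C1s-CM, against 173, 187 and 179 CPM in control CM. FKBP10 passed with a log2 fold change of 0.09 ± 0.03 (edgeR adjusted p = 0.014) and missed the threshold without control CM replicate 1 (0.07, edgeR adjusted p = 0.0866).

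HSPA5 and CALR, picked with their values known, did not pass the test. HSPA5 (BiP), the main ER HSP70, had 938, 916 and 919 CPM in C1s-CM, against 899, 908 and 893 CPM in control CM. The groups did not overlap, but the log2 fold change of 0.04 ± 0.03 did not pass (edgeR adjusted p = 0.143). CALR (calreticulin) had 2549, 2541 and 2541 CPM in C1s-CM, against 2529.8, 2546 and 2466 CPM in control CM, overlapping groups with a log2 fold change of 0.02 ± 0.03 (edgeR adjusted p = 0.514). In the authors' deposited table both are listed as higher, HSPA5 by 0.07 and CALR by 0.05 on the log2 scale. With total counts alone both were called lower here, HSPA5 at -0.09 and CALR at -0.11. CANX (calnexin), the membrane-bound partner of CALR, fell by 11.5%, with 507, 488 and 489.9 CPM in C1s-CM, against 560.1, 557 and 559.8 CPM in control CM.

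Within a library, GRP94 was lower relative to BiP, and calnexin lower relative to calreticulin, in all 3 C1s-CM libraries. The ratio of HSP90B1 to HSPA5 counts was 0.341 ± 0.00557 in C1s-CM and 0.481 ± 0.0121 in control CM (SD, n = 3 each). The ratio of CANX to CALR counts was 0.195 ± 0.00379 in C1s-CM and 0.222 ± 0.00416 in control CM. Such a ratio does not take out a trend with GC content or length. With offsets for both, CANX was at 0.23 and CALR at -0.12, so the order of this pair turned round. HSP90B1 (-0.13) and HSPA5 (0.24) kept theirs.

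These 4 ER genes (HSP90B1, HSPA5, CALR and CANX) are shown with their promoters because they carry the ER stress element, CCAAT and CCACG with 9 unspecified bases between them, to which the unfolded protein response factor ATF6 binds together with NF-Y. Promoter windows run from 250 bases before to 50 bases after the start site, from RefSeq on GRCh38.p14, and 37 of the 44 genes matched. BAG4, CCT6A, DNAJC1, FKBP10, FKBP14, FKBP8 and FKBPL did not. Both strands were searched, and the matches are in capitals, 5′ to 3′ on the strand of the gene. HSP90B1 (chr12:103930160-103930459, plus strand) holds it at -194 to -176 and at -89 to -71 from the start site. HSPA5 (chr9:125241294-125241593, minus strand) holds it at -66 to -48, CALR (chr19:12938359-12938658, plus strand) at -225 to -207, and CANX (chr5:179698679-179698978, plus strand) at -151 to -133.
HSP90B1: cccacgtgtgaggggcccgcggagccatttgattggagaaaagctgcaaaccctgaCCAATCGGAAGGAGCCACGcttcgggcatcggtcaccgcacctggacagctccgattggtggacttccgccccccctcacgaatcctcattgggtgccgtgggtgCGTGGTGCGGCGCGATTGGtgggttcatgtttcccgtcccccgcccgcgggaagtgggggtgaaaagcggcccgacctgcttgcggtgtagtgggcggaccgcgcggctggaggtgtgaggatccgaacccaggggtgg
HSPA5: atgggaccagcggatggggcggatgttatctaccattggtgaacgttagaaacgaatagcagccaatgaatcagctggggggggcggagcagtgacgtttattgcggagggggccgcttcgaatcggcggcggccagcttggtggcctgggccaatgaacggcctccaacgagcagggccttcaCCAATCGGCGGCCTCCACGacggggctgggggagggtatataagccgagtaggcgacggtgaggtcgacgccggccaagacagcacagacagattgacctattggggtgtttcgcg
CALR: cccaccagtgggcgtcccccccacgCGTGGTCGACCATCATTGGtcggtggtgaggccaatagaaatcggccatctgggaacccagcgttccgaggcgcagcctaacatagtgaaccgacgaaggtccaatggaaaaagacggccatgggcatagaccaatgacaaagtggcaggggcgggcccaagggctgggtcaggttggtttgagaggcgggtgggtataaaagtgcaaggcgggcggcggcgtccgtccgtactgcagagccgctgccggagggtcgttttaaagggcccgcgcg
CANX: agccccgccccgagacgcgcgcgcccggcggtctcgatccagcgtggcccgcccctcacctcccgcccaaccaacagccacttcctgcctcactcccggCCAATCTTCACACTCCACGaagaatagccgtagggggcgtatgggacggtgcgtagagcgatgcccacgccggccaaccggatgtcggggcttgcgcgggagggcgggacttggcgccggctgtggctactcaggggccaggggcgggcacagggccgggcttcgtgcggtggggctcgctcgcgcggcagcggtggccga

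The element was found in 22 of 27305 promoters of the table of promoters, 0.0806%, and in 0.167% of 4189 genes of the count table. It was found in 4 of the 11 ER genes with a window, against 0 of the 22 cytosolic ones. The 4 genes that share it did not move together. HSP90B1 (-0.46) and CANX (-0.18) were lower, and HSPA5 (0.04) and CALR (0.02) were not called. With the offsets for GC content and length described further on, CANX (0.23) and HSPA5 (0.24) were called higher and HSP90B1 (-0.13) and CALR (-0.12) lower. A match is a description of letters and does not show that a factor bound.

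In the cytosol the corresponding sequence is the heat shock element, searched on both strands as 3 alternating units, GAA, TTC and GAA, each set apart by 2 unspecified bases. It occurred in 133 of 27305 promoters, 0.487%, and in 0.215% of 4189 genes of the count table. Of the 37 chaperone genes 2 held it, HSPA8 (chr11:123062087-123062386, minus strand; -230 to -218 and -55 to -43) and DNAJA1 (chr9:33025023-33025322, plus strand; 4 to 16 after the start site). They are shown because they are the constitutive HSP70 and its J protein partner, and both fell under TMM scaling (log2 -0.27 for HSPA8 and -0.18 for DNAJA1). With offsets they were called in opposite directions, HSPA8 at -0.14 and DNAJA1 at 0.15.
HSPA8: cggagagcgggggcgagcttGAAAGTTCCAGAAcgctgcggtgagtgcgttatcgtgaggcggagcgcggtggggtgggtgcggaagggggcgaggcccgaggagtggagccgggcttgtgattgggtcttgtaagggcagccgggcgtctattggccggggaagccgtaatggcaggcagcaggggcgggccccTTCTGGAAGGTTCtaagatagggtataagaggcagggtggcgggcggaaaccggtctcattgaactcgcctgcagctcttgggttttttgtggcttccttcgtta
DNAJA1: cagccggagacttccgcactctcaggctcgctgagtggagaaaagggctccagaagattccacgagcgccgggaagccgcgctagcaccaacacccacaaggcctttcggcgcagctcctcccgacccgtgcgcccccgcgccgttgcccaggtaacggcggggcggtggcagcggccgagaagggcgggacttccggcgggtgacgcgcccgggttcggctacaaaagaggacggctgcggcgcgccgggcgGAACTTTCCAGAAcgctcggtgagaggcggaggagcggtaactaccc

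The inducible HSP90AA1 and HSPB1, which moved in opposite directions under TMM scaling, had no match to the 3 units within this window. With offsets both were called lower, HSP90AA1 at -0.18 and HSPB1 at -0.09. Forms of 2 units, GAA and TTC in either order with the same spacing, which the longer one contains, occurred in 13.7% of all promoters. Among 4189 genes of the count table the share was 9.84%, and 4 of the 37 (10.8%) had such a form, CCT4, DNAJA1, HSPA8 and HSPB1.

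Both mitochondrial genes were called, in opposite directions. HSPD1, the HSP60 chaperonin of the matrix, had 293, 286 and 291 CPM in C1s-CM, against 328, 340.2 and 333 CPM in control CM (log2 -0.20 ± 0.03, edgeR adjusted p = 8.06e-07). DNAJC30, a J protein of the inner membrane linked to complex I, had 33, 30.4 and 38.6 CPM in C1s-CM, against 27.5, 26.6 and 26.2 CPM in control CM (log2 0.34 ± 0.08, edgeR adjusted p = 0.000361). With 2 members, a median over the class has little meaning. HSPE1, the partner of HSPD1, and HSPA9, the matrix HSP70, had no row.

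Among the genes outside the 3 compartments, FKBP8, an anchor of BCL2 on the outer mitochondrial membrane, had the highest log2 fold change of the 44. It had 1022, 1034 and 1027 CPM in C1s-CM, against 793, 776 and 781 CPM in control CM, a log2 fold change of 0.39 ± 0.03 (edgeR adjusted p = 5.6e-12). Every C1s-CM library was above every control library. DNAJC4 had a log2 fold change of 0.26 ± 0.06, and DNAJC13, which acts in endosomal sorting, fell by 30.0%.

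The direction of a chaperone gene followed the GC content of its transcript, as it did over the whole table. Of the 15 chaperone genes at 50% GC or above, 14 had a positive log2 fold change, DNAJC1 being the exception. Of the 29 below 50%, 27 had a negative one, and HSPA5 and HSP90AB1 did not. Over all genes 98.1% of those at or above 50% had a positive log2 fold change, and 6.14% of those below. Spearman's rho between log2 fold change and GC content was 0.883 across the 44 genes and 0.849 across 5112 genes, and with transcript length it was -0.54 and -0.55. These values are across genes that share the same 6 libraries. The ER genes had a median GC content of 42% and the cytosolic genes one of 43.7%.

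**Figure D3:**
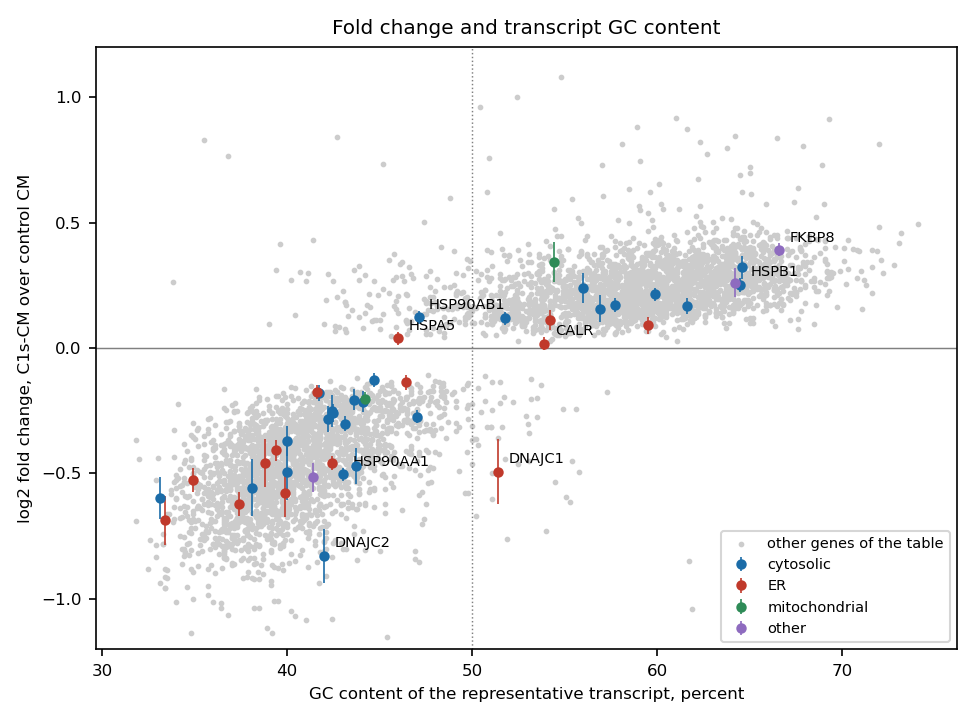
Log2 fold change of C1s-CM over control CM (vertical axis; bars are ± SE for chaperone genes) against GC content of the representative transcript in percent (horizontal axis), with other genes of the table in grey. Chaperone genes lie along the trend of the table, with DNAJC1 below it and HSP90AB1 above it; 8 other genes beyond 1.2 on the log2 scale in either direction are not drawn.

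The fit was therefore repeated with an offset for each gene and library, taken from a smooth fit on GC content and length over the whole table. Such offsets remove any difference that follows these properties, whatever its source, and whether the trend arose in the cells or in the libraries was not tested. With them 25.6% of all genes were called, 14.9% higher and 10.7% lower. Of the 44 chaperone genes 9 were called higher, 9 lower and 26 not, with a median of 0.01. Of 25 cytosolic genes 5 were higher and 5 lower, and of 14 ER genes 3 were higher and 4 lower, with medians of 0.02 and -0.01. The ER median thus lay near 0, as the cytosolic one did, once GC content and length were taken out. Neither mitochondrial gene was called, with 0.03 for HSPD1 and 0.21 for DNAJC30 (edgeR adjusted p = 0.383 and 0.0513).

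Of the 42 genes called at first, 8 kept both direction and call. HSP90AB1 (0.26 ± 0.02, edgeR adjusted p = 1.83e-08) and FKBP8 (0.08 ± 0.03) were higher with offsets. HSP90AA1 (-0.18 ± 0.02, edgeR adjusted p = 3.75e-06), HSP90B1 (-0.13 ± 0.02), HSPA8 (-0.14 ± 0.02), DNAJC2 (-0.52 ± 0.11), DNAJC21 (-0.22 ± 0.07) and DNAJC1 (-0.54 ± 0.13) were lower with offsets. The 3 HSP90 genes were the only family of more than 1 gene that kept all its calls and directions under the offsets. With the longest transcript in place of the representative one, HSP90AB1 was at 0.15, HSP90AA1 at -0.32 and HSP90B1 at -0.12, still called, while FKBP8 (0.07) and DNAJC21 (0.03) were not.

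Another 8 genes were called in the opposite direction with offsets. FKBP10 (-0.13) and HSPB1 (-0.09) became lower, and CANX (0.23), DNAJA1 (0.15), HSPA4 (0.12), SEL1L (0.12), FKBP5 (0.12) and CCT4 (0.09) became higher. HSPA5, not called before, was higher by 0.24 ± 0.02 (edgeR adjusted p = 2.97e-08) and CALR lower by -0.12 ± 0.02 (edgeR adjusted p = 0.000473), and both calls were also made with the longest transcript. For CANX and CALR the order of the pair turned round. None of the 5 HSP70 cofactors was called with offsets, nor were 11 of the 15 J proteins. Over all genes 25.6% were called in this setting, so the count for the J proteins is near the background. Groups did not overlap for 22 of the 44 genes in CPM after offsets, against 39.1% of all genes.

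**Figure D4:**
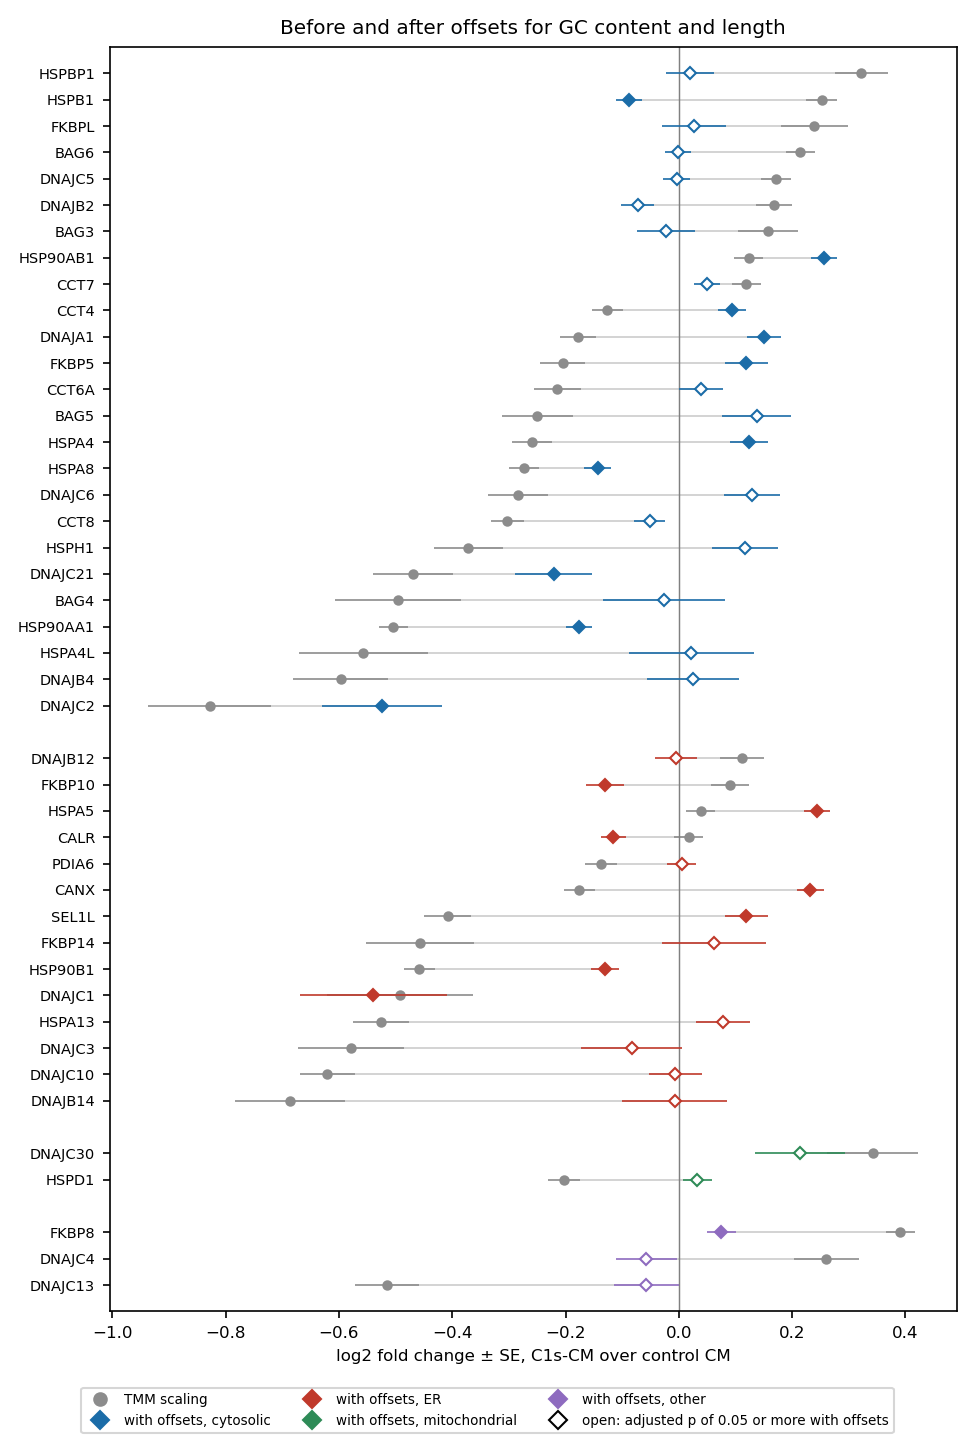
Log2 fold change ± SE of each chaperone gene, C1s-CM over control CM (horizontal axis), with TMM scaling in grey circles and with offsets for GC content and length in coloured diamonds, open where the adjusted p was 0.05 or more. HSP90AA1, HSP90B1, DNAJC2 and DNAJC1 stay below 0 and HSP90AB1 above it, while most other genes move to near 0 or across it.

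The counting could mix some of these genes with others. Exons of 20 of the 44 overlap those of another gene in GENCODE release 29, for 16 of them on the opposite strand, such as HSPD1 with HSPE1, HSP90AA1 with WDR20 and DNAJC2 with PMPCB, and whether strand was used is not given in the sources used here. Pseudogenes named by a gene's full symbol followed by P exist for 7 of the 44, HSPA8, HSPD1, DNAJA1, CCT4, CCT7, CCT8 and HSPB1, so their counts are uncertain to that extent. Pseudogenes named in other ways were not searched, so the remaining genes, the HSP90 genes among them, are not shown to be free of them. Precision followed abundance. The standard error of the log2 fold change was 0.03 for FKBP8, with a mean of 12587.3 counts, and 0.13 for DNAJC1, with a mean of 142.5 counts.

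Of 121 genes on 5 lists (co-chaperones, heat shock regulators, ER quality control, unfolded protein response regulators, mitochondrial folding) 60 had a row, of which 32 rose, 27 fell and GANAB, the catalytic subunit of ER glucosidase II, did not pass. Over all genes 50.9% were called higher and 48.5% lower, so these counts are near the background. With offsets 11 were higher and 6 lower, beside 14.9% and 10.7% of all genes. Of 23 cytosolic co-chaperones 15 rose and 8 fell. RUVBL2, an ATPase of the R2TP complex that works with HSP90, had a log2 fold change of 0.33, and the HSP70 co-chaperone SGTA and the tubulin cofactor TBCB had 0.30 and 0.28. PTGES3 (p23 of HSP90, -0.25), RPAP3 (-0.54) and CHORDC1 (-0.40) fell. With offsets RUVBL2 was at 0.09 and still called, and PTGES3 at 0.09, called in the other direction.

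Of 4 heat shock regulators with a row, HSF1, the main heat shock factor, rose (0.19 ± 0.04), and HSF2 (-0.39), SIRT1 (-0.37) and EEF1A1 (-0.24) fell. With offsets none of the 4 was called, and with total counts alone HSF1 was not (0.07). Of 8 unfolded protein response regulators 4 rose and 4 fell. TRIB3, a pseudokinase induced downstream of ATF4, had 0.36 ± 0.03, CREB3 0.25 and PPP1R15A, which directs the dephosphorylation of eIF2α, 0.17. EIF2AK3, the ER stress kinase PERK, fell (-0.42 ± 0.07), as did EIF2S1 (-0.34), the eIF2α subunit that it phosphorylates, and PPP1R15B (-0.30). With offsets TRIB3 (0.11) and EIF2S1 (0.16) were called higher, and none lower.

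Of 18 ER folding and quality control genes 8 rose and 9 fell. SEC62 (-0.68 ± 0.05) and the thioredoxin-like TMX1 (-0.50 ± 0.05) fell, as did the calcium-binding CALU (-0.27), while SDF2L1 (0.30), CRELD2 (0.25) and PRKCSH (0.16), the beta subunit of glucosidase II, rose. With offsets 5 of the 18 were called, all lower, PRKCSH among them at -0.11, beside 10.7% of all genes called lower. All 5 had a positive log2 fold change under TMM scaling. SEC62 (-0.08), TMX1 (0.10) and CALU (0.02) were not called with offsets. Of 7 mitochondrial folding genes and proteases 4 rose and 3 fell. TRAP1, the mitochondrial HSP90, had 0.31 ± 0.04 and was still called with offsets (0.10), the proteases LONP1 and CLPP had 0.25 and 0.31, and YME1L1 (-0.33), PMPCB (-0.30) and GRPEL2 (-0.39), an exchange factor of the matrix HSP70, fell.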

How the data were processed

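RNA sequencing of poly(A) RNA from 6 HMC3 libraries was deposited as 1 table of raw counts per gene, not normalized by the authors. Per the file headers it also holds the log2 fold change and the raw and adjusted p-value of the authors' own comparison. No adjusted p-value that the authors deposited exceeds 0.05, so the 5117 genes are a selection, and tests on them are no independent evidence of a change. Per the submitters' processing notes, FastQC 0.11.9, Trim Galore 0.6.7, HISAT2 2.2.1, DESeq2 1.40.2 and GRCh38 were used. For the read counter, the annotation and strand, the answer is not given in the sources used here.

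Counts of all genes were tested with edgeR 4.0.16 in R 4.3.3 (TMM, filterByExpr, quasi-likelihood test with a term for group, two-sided, Benjamini-Hochberg over 5116 genes, threshold 0.05), and the 44 chaperone genes were read out of that fit. A standard error is |log2 fold change| over the root of F. TMM assumes that most genes do not change, which a selected table does not ensure. GENCODE release 29 (GRCh38) held 5113 of 5117 identifiers. Its representative transcript per gene (chosen by principal-isoform and support tags) gave GC content and length, and offsets came from loess fits on both properties (span 0.3, degree 1, 5112 genes). Compartments were assigned by symbol from textbook location. Motifs were searched in RefSeq promoters.

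Alternatives were total counts only, DESeq2 1.42.0, no filter, a filter of 50 counts, offsets with the representative or the longest transcript, the replicate number as a block, and leaving out each library. The steps were tested on simulated counts with 200 changed genes. Any chaperone gene could be named. Values in every library, given as CPM, were set for up to 4 genes called higher and 4 called lower per compartment by smallest p, and up to 3 genes in each direction per other list were set to be named. HSP90AB1, HSPA5, CALR, CANX, FKBP8, GANAB and the ratio pairs were added with their values known. Part of the marker results is not reported here. Members and lists were chosen with earlier results of these data known. Replicates of a group differed beyond sampling noise in every pair.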

Additional observations from a re-analysis of the deposited data

How the results depend on the processing

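The counts and medians depended on whether offsets for GC content and length were used and on scaling. Offsets with the representative transcript gave 9 chaperone genes higher and 9 lower (median 0.01), with the replicate block added 9 and 9 (0.01), and with the longest transcript 6 and 9 (-0.01), where 27.5% of all genes were called, 15.7% higher and 11.8% lower. For cytosolic genes these were 5 and 5 (0.02), 5 and 5 (0.02), and 3 and 5 (0.0022). ER genes called lower numbered 4 in all 3 (-0.01, -0.0039 and -0.04). Mitochondrial genes called higher numbered 0, 1 and 0, and lower 0 in all 3. With the block added to the offsets, the log2 fold change of FKBP8 was no longer called (0.07, edgeR adjusted p = 0.0703), and the log2 fold change of DNAJC30 was (edgeR adjusted p = 0.0325). Other protein homeostasis genes gave 11 and 6 (0.03), 9 and 6 (0.03), and 11 and 9 (0.01). With total counts only, 6 chaperone genes were higher (median -0.34), 3 of them cytosolic (-0.34) and 0 ER (-0.56), the mitochondrial median was -0.06, and 16 other genes were higher (-0.04). DESeq2 called 0 ER genes higher (-0.45), 96.4% of all genes being called, while edgeR called 2; FKBP10 and DNAJB12 were the 2 that missed. Leaving out each library in turn gave 13 to 14 chaperone genes higher, 8 to 9 cytosolic and 1 to 2 ER, with medians of -0.22 to -0.18, -0.23 to -0.18 and -0.43 to -0.40, 0.02 to 0.11 for the mitochondrial pair and 0.08 to 0.09 for the other genes. BAG3, DNAJB12 and FKBP10 each lost their call in 1 of these fits. No count filter changed a call of a chaperone gene. The cause of the changes was not tested.

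Among the chaperone genes and the genes of the other lists set to be named, signs turned with offsets in the following, whose log2 fold changes are given with the representative and then the longest transcript. For chaperone genes with a positive TMM value they were DNAJC4 -0.06 and -0.01, HSPB1 -0.09 and -0.07, BAG6 -0.0011 and -0.02, DNAJC5 -0.004 and -0.02, DNAJB2 -0.07 and -0.05, BAG3 -0.02 and -0.06, DNAJB12 -0.0048 and -0.08, FKBP10 -0.13 and -0.15, CALR -0.12 and -0.16. For cytosolic genes with a negative one they were CCT4 0.09 and 0.02, DNAJA1 0.15 and 0.07, FKBP5 0.12 and 0.23, CCT6A 0.04 and -0.03, BAG5 0.14 and 0.10, HSPA4 0.12 and 0.09, DNAJC6 0.13 and 0.10, HSPH1 0.12 and 0.09, DNAJC21 -0.22 and 0.03, HSPA4L 0.02 and 0.02, DNAJB4 0.03 and 0.0001. For other chaperone genes with a negative one they were PDIA6 0.01 and -0.02, CANX 0.23 and 0.21, HSPD1 0.03 and -0.05, SEL1L 0.12 and 0.11, FKBP14 0.06 and 0.04, HSPA13 0.08 and 0.04. For named genes of the other lists with a positive TMM value they were HSF1 -0.09 and -0.09, PRKCSH -0.11 and -0.11, SDF2L1 -0.05 and -0.03, CRELD2 -0.02 and 0.08, PPP1R15A -0.05 and -0.07, LONP1 -0.0009 and -0.01, CLPP -0.01 and -0.01. For named genes of the other lists with a negative one they were PTGES3 0.09 and 0.01, RPAP3 0.05 and 0.02, CHORDC1 0.07 and 0.20, SIRT1 0.07 and 0.05, CALU 0.02 and 0.11, TMX1 0.10 and 0.07, EIF2S1 0.16 and 0.13, PPP1R15B 0.05 and 0.02, YME1L1 0.08 and 0.08, PMPCB 0.11 and 0.04, GRPEL2 0.11 and 0.08. With the replicate block added no offset value moved by more than 0.005, with RPAP3 at 0.06 and DNAJB12 at -0.0045. With total counts only, the calls of HSF1, PRKCSH, CRELD2, PPP1R15A, BAG3, DNAJC5, DNAJB2 and FKBPL were lost. The sign turned in that setting for HSP90AB1 (-0.0022), CCT7 (-0.01), DNAJB12 (-0.01), FKBP10 (-0.04), HSPA5 (-0.09) and CALR (-0.11).

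No pairing of the libraries by replicate number was seen, which does not exclude one. Same-numbered libraries had correlations of -0.13, -0.09 and -0.0031 between their deviations from the group means, and none correlated best with its own number. With the replicate block and no offsets 14 chaperone genes were higher and 28 lower, and no chaperone call changed. The counts listed are part of each library, so depth is not known, and precision was lowest for DNAJC1, HSPA4L and BAG4.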
